A study of Homo sapiens with 12 samples.

Results

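The RNAs described here had a higher share of reads in pre-immune serum immunoprecipitation (IP) libraries than in libraries of input, the RNA without IP. Whether the input libraries show the cells' whole RNA pool was not tested. The RNAs described are 100 genes of the 31707 listed in the data. Each was chosen by its level in the pre-immune libraries against input. Levels are in CPM, the reads of a gene per 1000000 reads assigned to genes in that library. A gene qualified with a pre-immune mean of at least 20 CPM, with every pre-immune library above every input library, and without every ADAR3 IP library lying above every pre-immune library. Of 7737 genes with that mean, 605 passed the second condition, a share of 7.82%, and 516 also passed the third. The 100 with the highest log2 ratio of pre-immune IP over input, computed with 0.1 CPM added to each mean, are the members, and they are numbered here by that ratio from rank 1. The third condition changed none of them, because none of the 89 genes it left out had a ratio as high as that of rank 100. The values of pre-immune IP and input chose the members, so these values are a description and carry no test.

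Immunoprecipitation of an RNA-binding protein also recovers RNA that the antibody did not select, through the beads, the tube walls and the antibodies of the serum itself. Serum taken before an animal is immunised holds its ordinary antibodies but none raised against the target, and an IP with it measures that non-specific recovery. Such a control shows which RNAs an IP can hold without selection by the target antibody. ADAR3 belongs to the adenosine deaminases that act on RNA, binds double-stranded RNA and is known chiefly from brain, and it is not known to edit RNA itself.

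All libraries came from U373-MG, a human glioblastoma line, grown with fetal bovine serum, crosslinked by ultraviolet light at 150 mJ/cm2 and sonicated. The 3 groups of 4 libraries are ADAR3 IP, directed at the protein that the cells make themselves, PreImmune IP, and Input, the RNA without IP. The labels name no further treatment or genotype for any group. It is 1 cell line, and nothing in the labels says that replicates are separate cultures, so the spread behind each p-value is that of these libraries and may be technical. Pre-immune libraries held 1875461 to 4946149 reads assigned to genes, ADAR3 IP libraries 23999234 to 30156884 and input libraries 4873428 to 12772412. The files name genes by Ensembl identifier and do not pair them with symbols, and 0 of the 100 identifiers could be matched to the reference table of 59792 genes. The members are therefore given by rank, with the identifier for 4 of them, and neither their functions nor the labelled cell type could be checked against marker genes.

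The members took up a large part of the pre-immune libraries and a very small part of input. Their share of reads was 20.9%, 19.4%, 13.7% and 22.4% in pre-immune replicates 1 to 4, with a mean of 19.1% ± 3.76 (SD, n = 4). In ADAR3 IP the shares were 6.35%, 6.18%, 5.53% and 6.42%, with a mean of 6.12% ± 0.406. In input they were 0.205%, 0.186%, 0.193% and 0.175%, with a mean of 0.190% ± 0.0129. The 3 groups did not overlap, and pre-immune replicate 3 was the lowest of its group. In the IPs nearly all of this came from the members ranked 2, 5 and 6, while in input most came from the other members. Ranks 2, 5 and 6 together took 17.7% ± 3.49 of pre-immune reads, 5.82% ± 0.411 of ADAR3 IP reads and 0.0146% ± 0.00484 of input reads. The remaining 97 members accounted for 1.37% ± 0.397, 0.300% ± 0.00826 and 0.175% ± 0.00845 of pre-immune, ADAR3 IP and input reads. These are shares of each library's own reads, so the amount of RNA recovered by each IP is not compared, and more of 1 RNA cannot be told apart from less of the others.

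**Figure D1:**
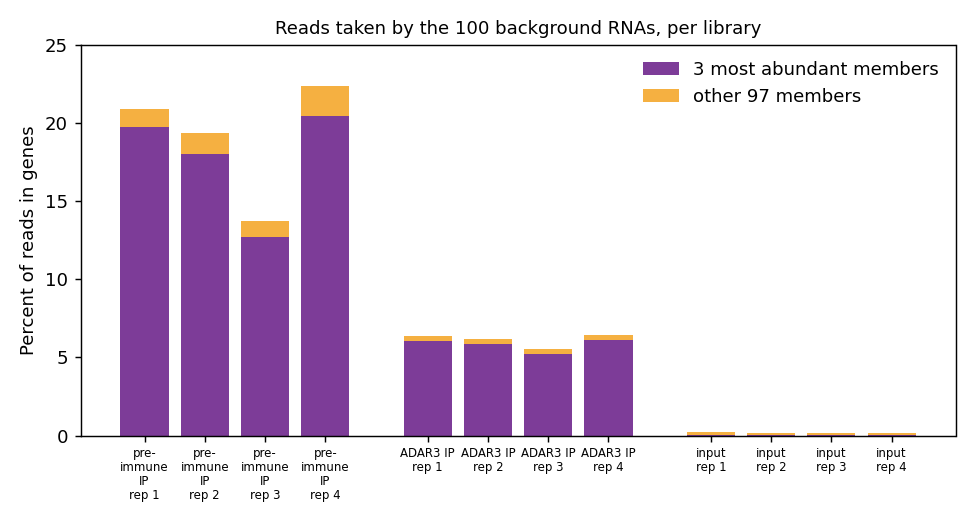
Bars show the percent of reads in genes taken by the members in each of the 12 libraries, split into the 3 members with the most pre-immune reads (ranks 2, 5 and 6) and the other 97. Pre-immune bars reach 13.7% to 22.4%, ADAR3 IP bars 5.53% to 6.42%, and input bars stay under 0.21%.

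The excess over input was very unequal among the members. The log2 ratio ran from 15.7 at rank 1 to 1.04 at rank 100, with a median of 1.36, against a median of -0.012 over the 7737 genes with a pre-immune mean of at least 20 CPM. It was at least 4, a 16-fold excess, for 19 members and under 2 for 71. The 20 members of highest ratio and the 80 below them are described in turn. This division is one of convenience, and no gap in the ratios marks it.

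**Figure D2:**
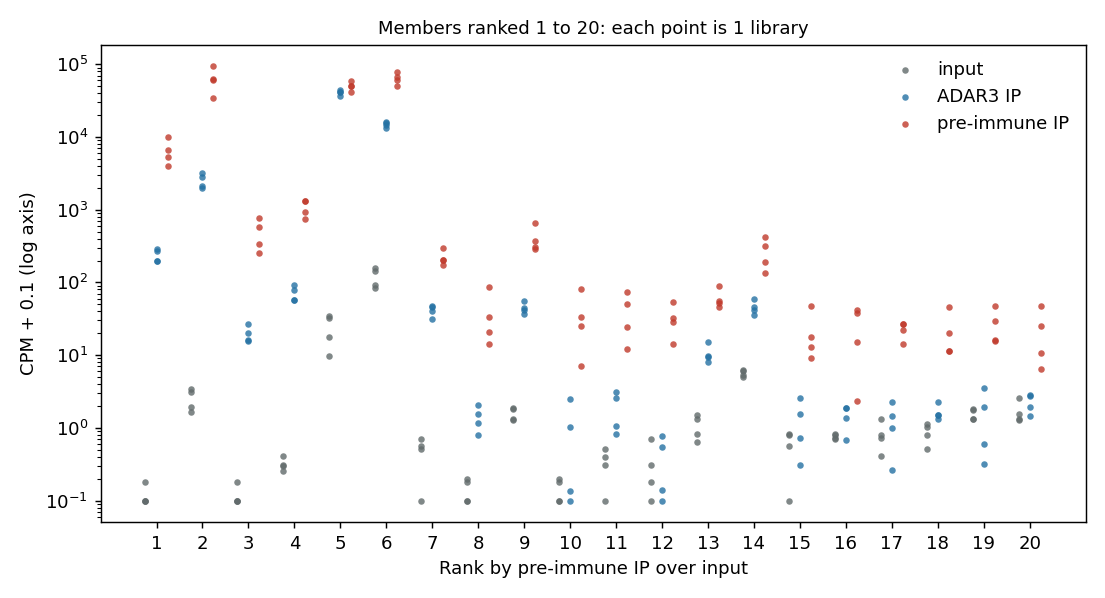
Each point is the level of 1 library, as CPM + 0.1 on a log axis, for the members ranked 1 to 20 by pre-immune IP over input, in input, ADAR3 IP and pre-immune IP. Pre-immune points lie above all input points in every column, as the selection requires, while ADAR3 IP points lie between the other groups at ranks 1 to 4 and beside the input points at ranks 15 to 20.

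Ranks 1 to 4 were almost absent from input and stood at a few percent of their pre-immune level in ADAR3 IP. The member ranked 1 had 5268, 6608, 4002 and 10025 CPM in pre-immune replicates 1 to 4, and 274, 198, 196 and 292 CPM in ADAR3 IP. It had 1 read over the 4 input libraries against 80907 in pre-immune IP. Its share of pooled reads was 216448 times higher in pre-immune IP (95% exact interval 38847 to 8549338). That interval covers counting error only, not the spread between libraries or the choice of members, and tests nothing. Rank 2 had 61651, 61916, 34077 and 93591 CPM with pre-immune serum, 2783, 1982, 2135 and 3171 CPM in ADAR3 IP, and 1.54 to 3.36 CPM in input. Both were highest in pre-immune replicate 4 and lowest in replicate 3, and their groups did not overlap.

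Rank 2 held 8.51 to 11.7 times the reads of rank 1 in the 4 pre-immune libraries and 10.01 to 10.9 times in the 4 ADAR3 IP libraries, so the proportion of the pair differed little between the IPs although both were far lower in ADAR3 IP. Rank 3 averaged 481 ± 232 CPM (SD, n = 4) over the pre-immune libraries and 19.6 ± 4.96 over those of ADAR3 IP, with 1 read over the 4 input libraries. Its ratio of pooled pre-immune reads over input was 15963, with an interval of 2864 to 630621 for counting error only. Rank 4 had 1076 ± 289 CPM with pre-immune serum, 71.2 ± 16.9 in ADAR3 IP and 0.217 ± 0.0649 in input, the last from 8 reads. The ADAR3 IP means of ranks 1 to 4 were 3.71%, 4.01%, 4.08% and 6.62% of the pre-immune means.

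Ranks 5 and 6 (ENSG00000211459 and ENSG00000210082, the members with most ADAR3 IP reads, identified here after their values were seen) were among the most heavily sequenced genes of both IPs. By mean CPM they stood in places 3 and 1 of all genes in pre-immune IP and in places 1 and 2 in ADAR3 IP, but in places 7522 and 1766 in input. ENSG00000211459 had 58132, 50554, 42172 and 49931 CPM in pre-immune replicates 1 to 4, and 41766, 41572, 36591 and 43649 CPM in ADAR3 IP. Input held 33.9, 17.7, 32.6 and 9.68 CPM of it. Its IP groups overlapped, since ADAR3 IP replicate 4 lay above pre-immune replicate 3, and it was the member of the first 20 with the highest ADAR3 IP level relative to pre-immune IP, at 81.5%.

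ENSG00000210082 had 77459, 67370, 50753 and 60805 CPM in pre-immune replicates 1 to 4 and 15876, 15318, 13483 and 14448 CPM in ADAR3 IP, which is 23.1% of the pre-immune mean. Input held 159, 93.4, 143 and 84.8 CPM, and no library of 1 group reached the range of another. The reads of ENSG00000210082 over those of ENSG00000211459 in the same library came to 1.20 to 1.33 in pre-immune IP, 0.331 to 0.380 in ADAR3 IP and 4.39 to 8.76 in input. Gene lengths cancel when this ratio is compared between libraries, so the proportion of the pair differed between all 3 groups without overlap. For ranks 1 and 2 the corresponding proportions overlapped between the IPs.

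Ranks 7 to 20 had pre-immune means between 21.9 and 407 CPM. Those with the most reads, ranks 7, 9, 13 and 14, kept a clear level in ADAR3 IP. Rank 9 had 304, 288, 370 and 665 CPM with pre-immune serum, 44.4, 37.04, 41.2 and 54.9 CPM in ADAR3 IP and 1.19 to 1.75 CPM in input. Rank 14 had 136, 192, 313 and 422 CPM with pre-immune serum, 40.97, 35.4, 46.1 and 58.3 CPM in ADAR3 IP and 4.84 to 6.18 CPM in input. ADAR3 IP was at 18.8%, 10.9%, 17.04% and 16.98% of the pre-immune mean for ranks 7, 9, 13 and 14.

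The other 10 of this band, ranks 8, 10, 11, 12 and 15 to 20, had ADAR3 IP means of 0.288 to 2.14 CPM and input means of 0.0443 to 1.59 CPM. Pre-immune means were 21.9 to 40.04 CPM, from only 241 to 531 reads over the 4 libraries. Rank 12 had 31.9, 53.6, 14.1 and 28.3 CPM in pre-immune IP and at most 0.661 CPM in any ADAR3 IP library. Its ADAR3 IP mean of 0.288 ± 0.321 CPM overlapped the input mean of 0.219 ± 0.263 (SD, n = 4 each), and was 0.900% of the pre-immune mean, the lowest of all members. Ranks 8 and 10 had 2 reads each in input. Their ratios of pooled reads were 555 and 609, with intervals of 153 to 4599 and 168 to 5041 for counting error only.

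Several of these sparse members varied widely between the serum libraries themselves. Rank 16 had 2.22, 15.0, 38.03 and 41.6 CPM in pre-immune IP, an 18.7-fold span from the lowest to the highest library and the widest of all members. Rank 10 spanned 11.4-fold, from 7.08 to 80.5 CPM, and rank 20 spanned 7.46-fold, from 6.44 to 48.0 CPM. Rank 5, in contrast, spanned 1.38-fold.

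Ranks 21 to 100 were RNAs that input held as well, at means of 4.40 to 187 CPM, with a pre-immune excess between 11.2-fold at rank 21 and 2.06-fold at rank 100. Rank 21 had 124, 123, 67.0 and 155 CPM with pre-immune serum, 20.9, 18.6, 22.5 and 20.3 CPM in ADAR3 IP and 9.79 to 11.1 CPM in input. Rank 23 had 281, 259, 175 and 364 CPM with pre-immune serum, 62.4, 44.5, 62.4 and 42.9 CPM in ADAR3 IP and 37.3 to 49.3 CPM in input, so ADAR3 IP lay close to input there. Rank 42 was the reverse, with 17.4, 49.4, 27.3 and 30.9 CPM with pre-immune serum, 36.2, 49.6, 39.4 and 47.1 CPM in ADAR3 IP and 9.32 to 12.3 CPM in input. Its ADAR3 IP mean was 138% of the pre-immune mean, the highest of all members, and the IP groups overlapped.

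The most even members across the serum libraries were ranks 96, 79 and 39. Rank 96 had 91.0, 74.03, 84.7 and 82.1 CPM in pre-immune IP, against 37.4 to 42.5 CPM in input. At the lower end of the ranking, rank 98 had 64.1 ± 15.1 CPM in pre-immune IP and 31.0 ± 2.97 in input, rank 99 had 47.6 ± 18.3 and 23.03 ± 4.65, and rank 100 had 71.0 ± 13.7 and 34.4 ± 1.37 (SD, n = 4 each). The next 3 genes, not members, had 51.7 ± 25.6 and 25.04 ± 1.69, 54.8 ± 12.8 and 26.6 ± 1.31, and 179 ± 39.9 and 87.0 ± 29.3 CPM. Ratios on both sides of the limit differ by far less than the spread between libraries.

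**Figure D3:**
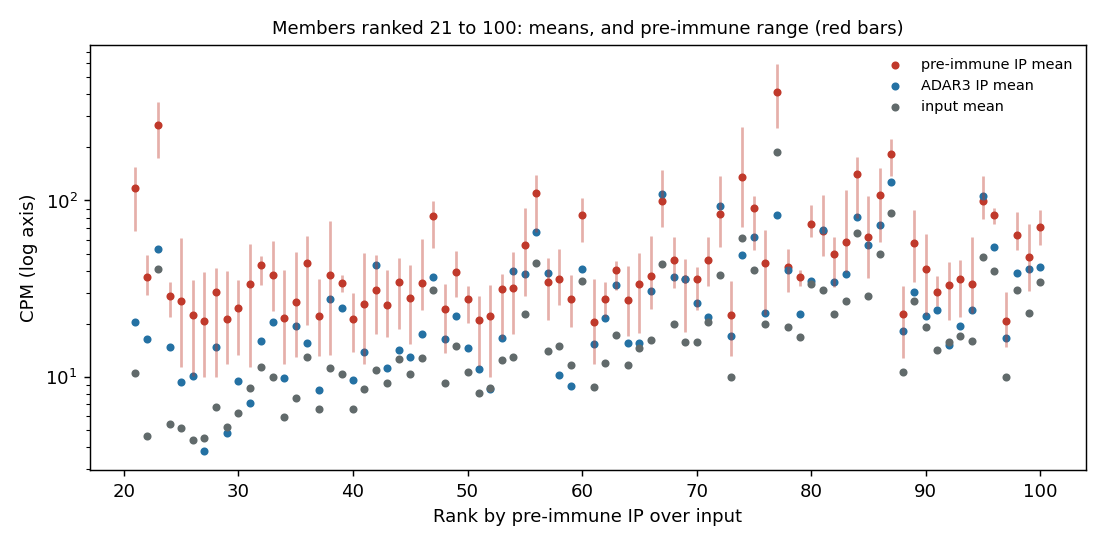
Points show the mean CPM of 4 libraries on a log axis for the members ranked 21 to 100 in pre-immune IP, ADAR3 IP and input, and red bars run from the lowest to the highest pre-immune library. The pre-immune bars are long, as at rank 42 with 17.4 to 49.4 CPM, and many ADAR3 IP means fall between the input and the pre-immune means.

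Spread between libraries was widest in the serum IP. Across members, the highest pre-immune library was 1.23 to 18.7 times the lowest, with a median of 2.49, and the span was over 4-fold for 12 members and under 2-fold for 30. The median SD on the log2(CPM + 0.1) scale was 0.57 in pre-immune IP, 0.27 in ADAR3 IP and 0.17 in input. Over the 7737 genes with a pre-immune mean of at least 20 CPM it was 0.60, 0.18 and 0.093. Pre-immune replicate 4, the shallowest library, was the highest of its group for 53 of the 100 members, compared with 26.6% of those 7737 genes, and replicates 1, 2 and 3 for 15, 16 and 16. A level of 20 CPM corresponds to 38 reads in that library, and its part in the choice of members was not tested beyond leaving it out.

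The upper part of the list depended little on any single library, and the lower part changed when a serum library was left out. With the rule applied again without pre-immune replicate 1, 2, 3 or 4, 66, 55, 65 and 49 of the 100 genes were chosen again. The second condition then covered fewer libraries, and 791, 924, 766 and 868 genes passed the rule, against 516 before. Places lost to newly admitted genes were not told apart from members that failed the rule. Of ranks 1 to 20, 20, 19, 19 and 17 were chosen again. Those lost were rank 18 without replicate 2, rank 16 without replicate 3 and ranks 15, 16 and 20 without replicate 4, each because its pre-immune mean then fell below 20 CPM, to between 13.2 and 19.6 CPM. Leaving out an ADAR3 IP library kept all 100, and leaving out an input library kept 91 to 98. ADAR3 IP values enter the rule only through the third condition and not the ranking, so those repeats test the list little. Ranks 1 to 14 were chosen again in each of these 12 repeats. The upper part depended on the minimum level, since 20 of ranks 1 to 20 were chosen again at 10 CPM but 10 at 50 CPM.

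ADAR3 IP was set against input to see where the RNAs of the serum IP stood in the specific IP. The rule chose members for low input values, and the same input libraries enter this comparison, so a higher level in ADAR3 IP is favoured by the choice of members. The counts are therefore a description and are not read as an excess of the members over other genes. Of 95 members with a mean of at least 1 CPM over the 8 libraries, 61 were called higher in ADAR3 IP than in input, 3 lower and 31 neither (limma on log2(CPM + 1), Benjamini-Hochberg adjusted p under 0.05 over 14601 genes). Among all genes tested, 28.9% were called higher and 30.4% lower. Of these 95, 8 had an input mean under 1 CPM and passed the minimum only through ADAR3 IP. The other 87 are all the members with an input mean of at least 1 CPM, and of them 55 were called higher and 3 lower. Their median log2 difference was 0.56, with 0.017 over all genes tested, and 77 of the 87 had a positive one.

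Counted by libraries alone, every ADAR3 IP library lay above every input library for 49 of these 87 members, beside 25.7% of all genes tested, and below every input library for 2, beside 27.6%. These counts too rest on input values that the rule used. The IP and input tables had been normalized separately by the authors, and dividing by each library's own sum removes that difference from the CPM values.

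ENSG00000211459 had a log2 difference of 10.9 ± 0.32 and ENSG00000210082 of 6.98 ± 0.19 (SE), and both were higher in 4 of 4 ADAR3 IP libraries. With edgeR they had 10.8 and 6.95. For members with hardly any input reads the size depended on the added 1 CPM. Rank 1 had 7.86 ± 0.16 (SE), but 10.997 with 0.1 CPM added, 12.8 with edgeR and 12.76 with DESeq2. Rank 4 had 5.86 ± 0.19 (SE), but 7.80, 8.33 and 8.36 under the same settings, and rank 3 had 4.31, but 7.38, 9.21 and 9.15. Rank 2 had 9.53 ± 0.18 (SE), and then 9.999, 9.95 and 9.97. The order of these members by difference changes with the setting. Of ranks 1 to 20, 11 were higher in ADAR3 IP, namely ranks 1 to 7, 9, 11, 13 and 14, and 6 of these 11 (ranks 1, 3, 4, 7, 11 and 13) had an input mean under 1 CPM and entered the test only through ADAR3 IP.

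Another 4 of the first 20 did not pass the test. Their differences were 0.47 ± 0.29 for rank 16, 0.53 ± 0.29 for rank 18, -0.17 ± 0.32 for rank 19 and 0.28 ± 0.29 for rank 20 (SE). Their pre-immune excess was 14.1-fold to 36.8-fold, a plain ratio of means. The 1 CPM added makes the differences of such low genes look smaller, so the scales are not alike. Ranks 8, 10, 12, 15 and 17 lay below the minimum and were not tested. Without a minimum, rank 8 was higher in ADAR3 IP by 1.11 ± 0.16 (SE) and was called by limma and by DESeq2, with 145 reads over the ADAR3 IP libraries against 2 over input. For ranks 12, 15 and 17 the differences were then 0.069 ± 0.22, 0.49 ± 0.33 and 0.26 ± 0.31 and did not pass by limma or DESeq2. For rank 10 it was 0.63 ± 0.29, called by DESeq2 and not by limma. Its 89 ADAR3 IP reads were unevenly spread, with 0, 1, 66 and 22 in replicates 1 to 4.

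Of ranks 21 to 100, 50 were higher in ADAR3 IP than in input, 27 were not called and 3 were lower. Differences of the 50 ran from 0.28 to 1.88, with a median of 0.76. Rank 42 had the largest, 1.88 ± 0.15 (SE). Ranks 54 and 57, with 1.52 ± 0.14 and 1.40 ± 0.15 (SE), had like rank 42 a higher mean in ADAR3 IP than in pre-immune IP, at 123% and 113% of it, and the libraries of the IPs overlapped. Rank 67 had 71.2 to 148 CPM over the pre-immune libraries, 100.3 to 124 over ADAR3 IP and 38.5 to 48.8 over input. Rank 72 had 54.7 to 137 CPM, 89.1 to 102 and 32.4 to 42.8 in these groups. Both were higher in ADAR3 IP than in input, by 1.31 ± 0.11 and 1.30 ± 0.12 (SE), and for both the range of ADAR3 IP lay within that of the serum libraries.

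The 3 members that were lower in ADAR3 IP than in input were ranks 77, 58 and 74, and the identifiers of ranks 77 and 74 are given because they had the most ADAR3 IP reads among these 3. Rank 77 (ENSG00000188486) had 259, 450, 341 and 595 CPM with pre-immune serum, 83.4, 69.97, 84.65 and 91.0 CPM in ADAR3 IP and 174, 201, 181 and 193 CPM in input. Every ADAR3 IP library lay below input, and every serum library above it, as the rule requires of every member. Its log2 difference from input, -1.18 ± 0.093 (SE; limma adjusted p = 3.79e-11), was the lowest of the members tested. Rank 58 had 25.4 to 52.8 CPM over the pre-immune libraries, 7.83, 12.9, 12.9 and 7.0 CPM in ADAR3 IP and 14.2 to 16.5 CPM in input, without overlap. It had a difference of -0.56 ± 0.18 (SE; limma adjusted p = 0.0113), and its call was lost without ADAR3 IP replicate 1 or 4. Rank 74 (ENSG00000021776) had 124, 89.4, 70.6 and 261 CPM with pre-immune serum, 46.5, 57.2, 43.8 and 47.6 CPM in ADAR3 IP and 57.2 to 64.8 CPM in input. The lowest input library lay level with ADAR3 IP replicate 2, so the groups overlapped, and the difference was -0.33 ± 0.11 (SE; limma adjusted p = 0.0108). Its call was lost without ADAR3 IP replicate 3, and also when the reads of ranks 1 to 6 were left out of the library sums. Ranks 59 and 31 also had negative differences, -0.40 ± 0.19 and -0.25 ± 0.20 (SE), which did not pass.

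**Figure D4:**
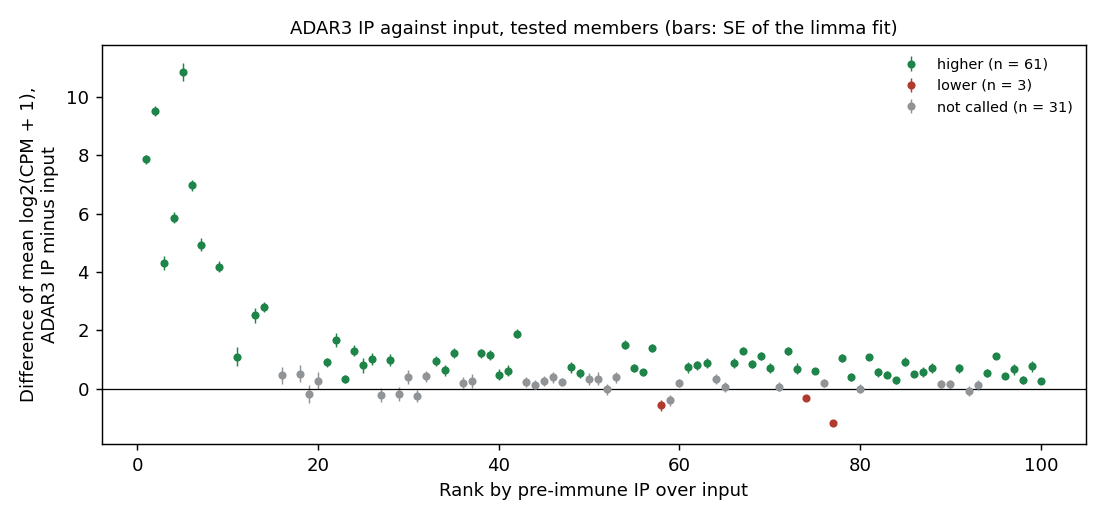
Points show the difference of mean log2(CPM + 1), ADAR3 IP minus input, for the 95 members tested, by rank, and bars the SE of the limma fit over 4 libraries a group. The 61 members called higher are green, with values up to 10.9 at rank 5 with 1 CPM added, the 3 called lower are red, and the 31 not called are grey.

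ADAR3 IP against pre-immune IP belongs to the contrasts the selection used, and the members were picked for high serum values, so its results are a description. The mean was lower in ADAR3 IP for 93 of the 100 members, and ADAR3 IP stood at a median of 52.0% of the pre-immune level, from 0.900% at rank 12 to 138% at rank 42. The median was 5.53% for ranks 1 to 20 and 55.5% for ranks 21 to 100. Every ADAR3 IP library lay below every pre-immune library for 49 members, 19 of the first 20 and 30 of the other 80, where 7.17% of the 7737 genes with a pre-immune mean of at least 20 CPM did so. Rank 5 was the exception among the first 20.

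**Figure D5:**
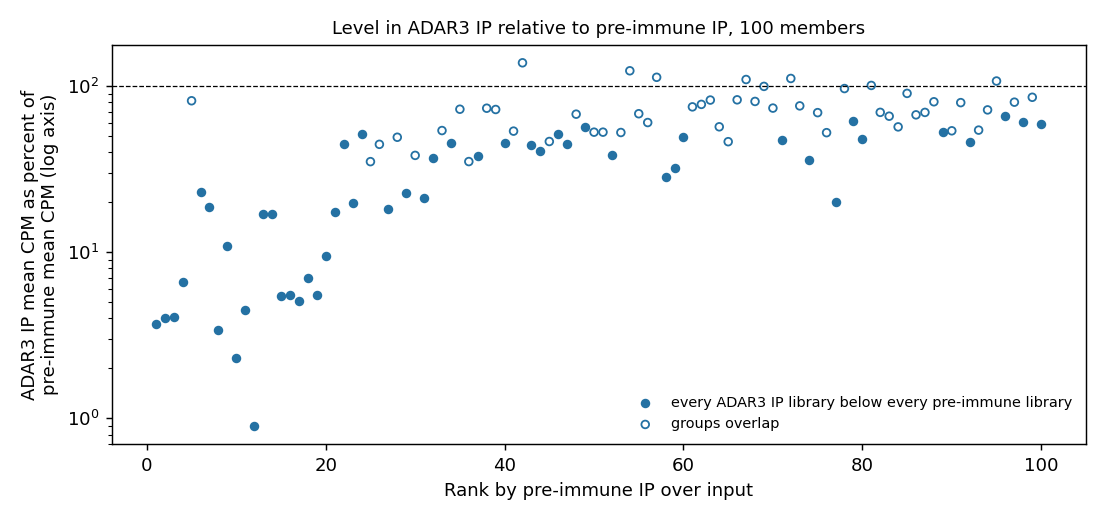
Points show the ADAR3 IP mean CPM as a percent of the pre-immune mean CPM, on a log axis, for the 100 members by rank, filled where every ADAR3 IP library lay below every pre-immune library (49 members) and open where the groups overlap. Most of the first 20 lie under 20%, rank 5 lies at 81.5%, and the later ranks lie mostly between 20% and 138%.

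In the limma fit of log2(normalized count + 1) on the IP table, 18 members were called lower in ADAR3 IP and 0 higher, beside 1.74% lower and 2.33% higher among all 11112 genes tested. The choice of members by high pre-immune values favours lower calls, and nothing is read from these counts. At an unadjusted limma p under 0.05 the count of higher members was also 0, and edgeR and DESeq2 called 0 members higher. The called members were ranks 1 to 4, 6 to 9, 11 to 14, 17, 21, 23, 47, 60 and 77, with log2 differences of -6.70 to -1.08 around a median of -2.91. Over all genes tested the median difference was 0.25, and 57.3% of the called genes were higher. TMM factors moved these to 0.40 and 77.7%, and the members called lower to 19, while the median was -0.00063 by edgeR and -0.061 by DESeq2. In the authors' deposited table, 62 of the 100 members were lower in ADAR3 IP at an adjusted p under 0.05 and 0 higher, beside 5.63% lower of the 17946 genes with an adjusted p. The DESeq2 fit used here gave the same counts from the same libraries, so it is not a separate result. For ENSG00000211459 the authors' deposited table gives a log2 fold change of -0.38, and for ENSG00000210082 -2.20.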

How the data were processed

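RNA of U373-MG cells was sequenced in 12 libraries, whose group and number come from the sample titles. The labels' protocols describe ribosomal RNA depletion, a strand-specific kit and 15 cycles of amplification. As starting material they give 1 µg of RNA for input and all recovered RNA for each IP. Under molecule, however, the labels name polyadenylated RNA. Which description holds was not tested, so the kinds of RNA that input could contain stay uncertain. Input levels of the members are therefore not read as levels in the cells. The submitters' processing notes list STAR 2.7.7a, featureCounts, DESeq2 and GRCh38 with no role for any of them. The annotation and the strand setting, not given in the sources used here, leave overlapping, antisense and near-identical genes uncertain.

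The authors deposited gene counts divided by a size factor, a normalized signal, in separate tables for the IPs and for input. Whole reads were recovered for 100% of values (tolerance 0.001 reads). The authors also deposited log2 fold changes between the IPs, with p-values and, per the file headers, a standard error and a test score. CPM is a value over its column sum. The members and lists were chosen with earlier results of these data known. The rule for the members described singly took the 15 of highest ratio over input, the 10 of highest pre-immune CPM, the 5 at each end of ADAR3 IP minus input and of ADAR3 IP over pre-immune IP, the 3 of widest and the 3 of narrowest pre-immune range, and ranks 98 to 100 with the next 3 genes. Ranks 17, 18, 19 and 21 and the 2 identifiers given in each direction were picked after their values were seen. The 20 gene lists and the cell type markers need gene names and were not used here.

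ADAR3 IP against input was fitted with limma 3.58.1 (R 4.3.3) on log2(CPM + 1), with a variance trend and weights per group, for genes with a mean of at least 1 CPM. The added 1 makes changes of low genes look smaller. ADAR3 IP against pre-immune IP was fitted on log2(value + 1) for genes with a mean of at least 50, without weights. Alternatives used edgeR 4.0.16 and DESeq2 1.42.0 on the recovered reads, other minimums and scalings, the replicate number as a block, and 1 library left out at a time. On the recovered reads edgeR called 4275 genes higher and 4131 lower against input, and 299 and 195 against pre-immune IP. Replicates differed by more than sampling noise (mean chi-square per gene of at least 2.53).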

Additional observations from a re-analysis of the deposited data

Results flagged for a closer look

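Of 105 sets of 4 libraries examined (the members described singly and the shares of reads), 3 held a library whose gap to the others passed Dixon's 95% critical value, and chance alone marks about 1 set in 20. In input, ranks 1 and 3 each had a single read, both in replicate 1, which gave 0.0783 CPM there and 0 in the other libraries. A single read in 1 of 4 libraries always passes this rule, so these flags carry no information and the 1 in 20 rate does not apply to them. The lowest input library of rank 79 had 15.8 CPM, against 16.99 to 17.2 CPM in the other 3.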

How the results depend on the processing

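Against input, 61 members called higher and 3 lower became 57 to 65 and 2 to 3 over the settings that kept all 8 libraries, and 55 to 63 and 2 to 4 with 1 library left out. All genes called ranged from 3613 to 4283 and from 4075 to 4375 with 1 left out. DESeq2 put the median difference of all genes at -0.12, against 0.017. The replicate numbers were not taken as pairs. Deviations of libraries with 1 number correlated at -0.047 to 0.19. The highest, for replicate 4 of ADAR3 IP and input, lay above the limit of 0.1 set for a replicate block. With that block limma gave 63 and 3 members. For the 30 members described singly and tested, 510 of 532 pairs of member and setting kept direction and side of the threshold. Among the other pairs, 21 lost the call (ranks 23, 58, 74, 79, 98 and 100), 1 gained it (rank 59), and 0 changed sign. Members with large differences were among those chosen and the settings share libraries, so this count was partly fixed by the choice. Against pre-immune IP, 18 members called lower became 62 with DESeq2, 13 with the replicate block in limma, and 12 to 24 with 1 library left out, and 0 were higher in any of these. Over all genes, the 259 higher became 1493 without a minimum, 1571 with DESeq2, 449 with TMM factors and 142 with group variance weights. The 193 lower became 1010 with DESeq2, 55 with group weights and 89 with edgeR and the replicate block, a setting added after the data were seen. Without ADAR3 IP replicate 1, 2, 3 or 4 the higher genes were 118, 108, 108 and 125 and the lower 74, 65, 68 and 93, and without pre-immune replicate 4 they were 432 and 340. The cause was not tested. The members chosen again were 60 at a minimum of 10 CPM, 33 at 50 CPM, 98 with 1 CPM added, 97 with TMM factors, 70 with ranks 1 to 6 out of the library sums (added after the data were seen), and 49 to 100 with 1 library left out. With ranks 1 to 6 out of the library sums, 1304 genes passed the rule, against 516 with them in. Without the 10 members of highest pre-immune CPM the others took 0.431%, 0.244% and 0.152% of reads in pre-immune IP, ADAR3 IP and input. With 1 library left out, the full shares ranged from 17.99% to 20.9%, 6.02% to 6.32% and 0.185% to 0.195%. Depth limits the sparse members, with 241 pooled pre-immune reads at the least.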
